A study of Mus musculus with 18 samples.

Results

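The comparison described here is that of fibroblasts given the guide RNA gLmna-2 with fibroblasts given gMock, in Pro/Pro;Cas9/+ cells. Its members were the 4 of 18 libraries whose titles name that genotype and either of those guides: 2 gLmna-2 libraries and 2 gMock libraries, 1 of each from the same 2 mice, called mouse 1 and mouse 2 below. Pro/Pro;Cas9/+ cells (homozygous Cas9 cells) carried the mutant Pro allele of Lmna on both chromosomes and a Cas9 transgene. All were primary fibroblasts grown from tail tips of 2-month-old mice and taken at passage 5. gLmna-2 is a guide against Lmna, and gMock a guide without a match in the genome. Both reached the cells in lentivirus with an mCherry reporter, so the gMock cells also held Cas9, the virus and the reporter. Over 80% of cells were mCherry-positive and none were sorted or selected, so each library also held cells that may not have received the guide. What drives Cas9 is not stated in the labels. The same comparison in +/+;Cas9/+ cells (wild-type Cas9 cells, no Pro allele) and in Pro/+; +/+ cells (heterozygous cells without Cas9) was used as a reference, with 2 gLmna-2 and 2 gMock libraries each.

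Lmna encodes lamin A and lamin C, filament proteins of the lamina under the inner nuclear membrane, by alternative use of the last exons. Lamin A is made as a precursor whose end is farnesylated at a CaaX motif and then cut off by the protease ZMPSTE24. In progeria a mutant precursor, progerin, lacks the cutting site, keeps its farnesyl anchor and disturbs the nuclear envelope, and cells with it are known for early senescence and altered matrix and Wnt signalling. Cas9 with a guide against this gene is meant to break the coding sequence of the precursor.

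The coding end of lamin A in the last exon is shown because lamin C lacks it and the values of Lmna differ there. It is given 5′ to 3′ on the coding strand from the GENCODE transcript of lamin A on the GRCm38 (mm10) assembly (chr3:88482074-88482100, minus strand). The capitals mark the codons of the CaaX motif, residues 662 to 665 of the precursor.
Lmna exon 12, coding end: agctcccagaacTGCAGCATCATGtaa

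Expression is given as FPKM, reads on a transcript scaled to its length and to the depth of the library, as the authors computed it. The 4 libraries held 22905166 to 42622056 reads, within the 22424405 to 42622056 of all 18. The label fibroblast was borne out by its markers: all 18 fibroblast markers were measured above the filter on low values, and the collagen gene Col1a1 was at 1755 and 1123 FPKM in mouse 1 and mouse 2 with gLmna-2, against 2402 and 1160 FPKM with gMock. Xist was at 18.9 to 24.4 FPKM in the 4 libraries and the 4 Y-linked genes were at or near 0, so that no library stood apart in sex. Changes are differences of log2(FPKM + 1), gLmna-2 minus gMock, which understate the change of genes with low values.

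The targeted gene was examined first. The Lmna transcript with the highest mean, which ends as lamin C, was at 247 FPKM in mouse 1 and 310.0 FPKM in mouse 2 with gLmna-2, against 246 and 369.8 FPKM with gMock. The groups overlapped, and the change of −0.12 (SE 0.17, limma adjusted p = 0.92) did not pass the threshold of 0.05. It became 0.14 when the gMock library of mouse 2 was left out. The first exon of this lamin C transcript was at 2.3 FPKM or less in the 4 libraries, so its value came from later exons. Most of these are shared with the lamin A transcript. The whole lamin A transcript, described without a test, was at 168 and 200 FPKM with gLmna-2, against 180 and 265 FPKM with gMock. These are changes of −6.37% in mouse 1 and −24.6% in mouse 2. Toward the lamin A end the values were lower with gLmna-2 in both mice. Exon 11 was at 50.8 and 47.6 FPKM with gLmna-2, against 58.2 and 79.9 FPKM with gMock, changes of −12.7% in mouse 1 and −40.5% in mouse 2. The coding end of exon 12 was at 25.8 and 29.0 FPKM with gLmna-2, against 30.7 and 65.5 FPKM with gMock, and the untranslated rest of exon 12 changed by −32.7% and −57.1%. The end that only lamin C uses went the other way, at 170 and 240 FPKM with gLmna-2, against 108 and 228 FPKM with gMock, which is 57.3% and 5.06% higher. These single parts are described without a test.

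Of 12599 genes tested, 45 passed an adjusted p of 0.05: 44 were higher with gLmna-2 (0.349% of the genes tested) and 1, Sfrp2, was lower (0.00794%). The 44 changes ran from 0.53 to 2.47 with a median of 0.88, and the mean level with gLmna-2 ran from 1.59 to 227 FPKM. In 35 of the 44 both gLmna-2 libraries lay above both gMock libraries, and in 9, among them Cdkn2a and Mfap5, the groups overlapped, the mice lying farther apart than the guides. All 45 moved the same way in both mice, as did 63.3% of all genes tested. The genes were chosen by their change in these same 4 libraries, so separation and direction follow in part from that choice. The counts of overlap are given without a share over all genes. Over all genes tested, 6968 (55.3%) had positive changes, 4559 were positive in both mice and 3413 negative in both. At an unadjusted p under 0.05, 1064 genes (8.45%) were higher and 208 (1.65%) lower. A difference of at least 0.5 in both mice, without a test, was met by 226 genes on the higher side (1.79%) and by 61 on the lower (0.484%).

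**Figure D1:**
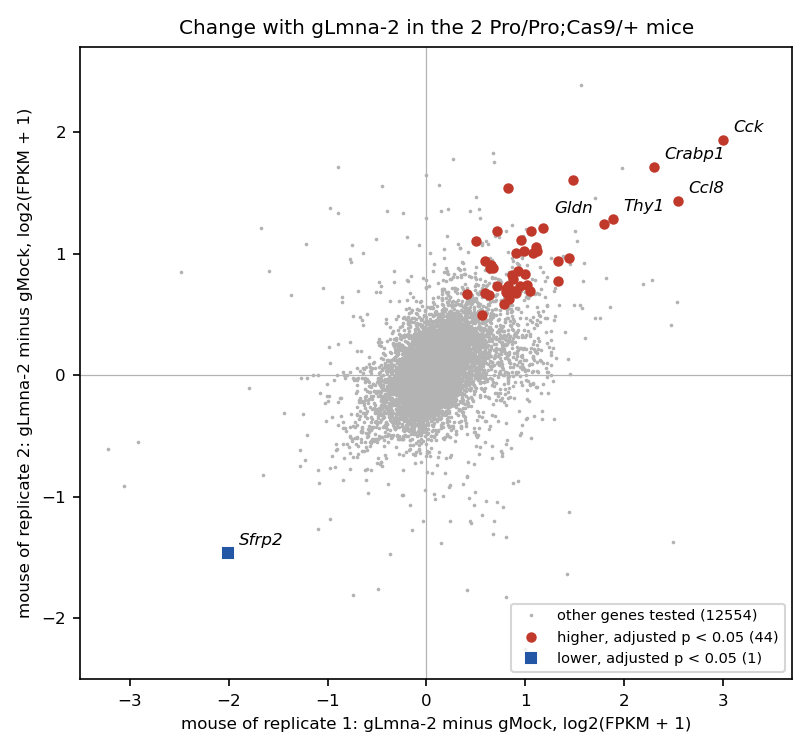
Change in log2(FPKM + 1) with gLmna-2 against gMock in mouse 1 (horizontal) and mouse 2 (vertical) of the homozygous Cas9 cells, 1 point a gene. Red circles are the 44 genes that passed the test on the higher side and the blue square is Sfrp2, the 1 that passed on the lower side. The red points all lie in the upper right, with Cck farthest out at 3.00 in mouse 1 and 1.94 in mouse 2.

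Among higher genes the largest changes were those of a peptide hormone, a retinoid-binding protein, a chemokine and a surface glycoprotein. Cck, the peptide hormone cholecystokinin (chr9:121489824-121495694), was at 162 FPKM in mouse 1 and 225 FPKM in mouse 2 with gLmna-2, against 19.5 and 58.0 FPKM with gMock. Both gLmna-2 libraries were well above both gMock libraries. The means were 194 ± 44.01 FPKM with gLmna-2 and 38.7 ± 27.2 FPKM with gMock (SD, n = 2 mice each), a change of 2.47 (SE 0.39, limma adjusted p = 0.038). Crabp1, which binds retinoic acid in the cytosol (chr9:54764748-54773110), was at 68.7 and 59.1 FPKM with gLmna-2, against 13.1 and 17.3 FPKM with gMock. Here the mice differed little and the groups were far apart, with a change of 2.01 (SE 0.21, limma adjusted p = 0.016). Ccl8, a chemokine that draws monocytes (chr11:82115185-82116799), was at 98.3 and 67.7 FPKM with gLmna-2, against 15.95 and 24.4 FPKM with gMock. The mouse that was higher with gLmna-2 was the lower one with gMock, and the change was 1.99 (SE 0.31, limma adjusted p = 0.038). Thy1, a glycoprotein on the surface of fibroblasts and neurons (chr9:44043384-44048579), was at 158 and 85.6 FPKM with gLmna-2, against 41.9 and 34.6 FPKM with gMock. Its change was 1.58 (SE 0.20, limma adjusted p = 0.022), larger in mouse 1 (1.89) than in mouse 2 (1.28).

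**Figure D2:**
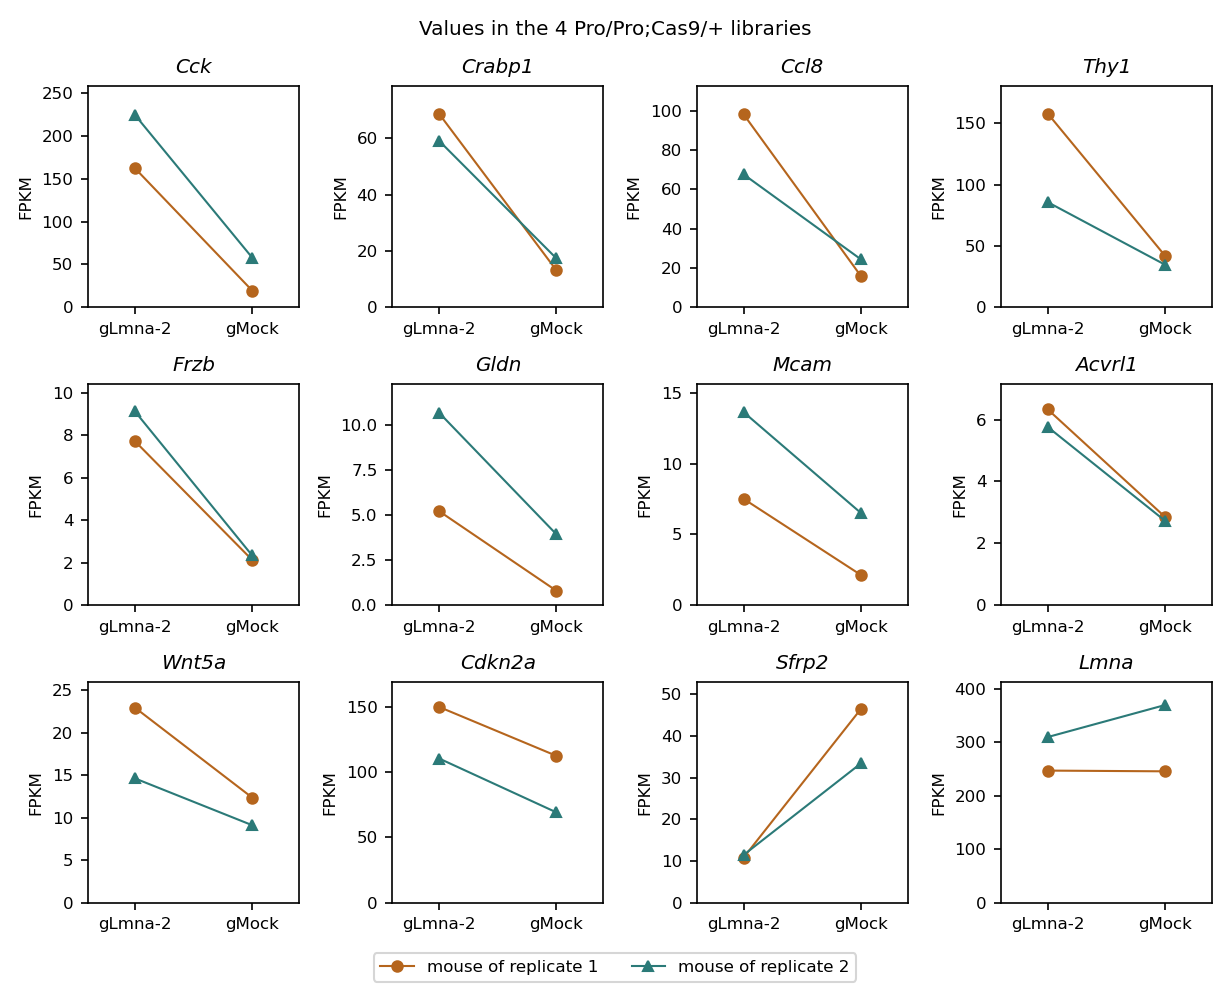
FPKM of 12 genes in the 4 libraries of homozygous Cas9 cells, with gLmna-2 on the left and gMock on the right of each panel. Circles and triangles are mouse 1 and mouse 2, joined by lines, and each axis starts at 0. The lines fall toward gMock in both mice for the 10 genes that were higher, climb for Sfrp2, and for Lmna are flat in mouse 1.

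Genes of Wnt signalling held changes in both directions. Sfrp2, a secreted protein that binds Wnt ligands (chr3:83766321-83774314), was at 10.8 and 11.5 FPKM with gLmna-2, against 46.5 and 33.4 FPKM with gMock. It fell by 1.73 on the log2 scale (SE 0.22, limma adjusted p = 0.022), and both gLmna-2 values lay below both gMock values. Frzb, another secreted Wnt-binding protein of the same family (chr2:80411970-80447396), was at 7.73 and 9.14 FPKM with gLmna-2, against 2.13 and 2.34 FPKM with gMock. It rose by 1.54 (SE 0.15, limma adjusted p = 0.016), with mice that were nearly equal. The Wnt antagonist Dkk2 was at 55.7 and 31.5 FPKM with gLmna-2, against 35.02 and 16.3 FPKM with gMock, a change of 0.78 (SE 0.13, limma adjusted p = 0.040) with overlapping groups. The ligand Wnt5a was at 22.97 and 14.6 FPKM with gLmna-2, against 12.4 and 9.13 FPKM with gMock, a change of 0.73 (SE 0.12, limma adjusted p = 0.038) without overlap. Of 21 tested genes in a list of secreted Wnt antagonists and Wnt targets, 3 rose and 1 fell past the test. Over all genes tested these shares were 0.349% and 0.00794%, and the list was written with earlier results of these data known. The median change of the list was 0.30, against 0.019 over all genes tested. Sfrp1 (0.67) and Nkd2 (1.18), inhibitors of the pathway outside and inside the cell, were positive in both mice and did not pass (limma adjusted p = 0.10 and 0.18).

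Given together here are 7 higher genes that encode receptors or other surface proteins, gathered after the test and from no list. Acvrl1, a receptor for bone morphogenetic proteins (chromosome 15), was at 6.33 and 5.76 FPKM with gLmna-2, against 2.85 and 2.72 FPKM with gMock. The mice lay close together in both groups, and the change was 0.89 (SE 0.099, limma adjusted p = 0.016). Acvrl1 was the 1 gene of 32 tested in the list of the TGF-beta pathway that passed, against 0.349% higher of all genes. Grem1, a secreted antagonist of that pathway, had a change of 0.88 and did not pass (limma adjusted p = 0.26). Cd248 (endosialin) was at 59.7 and 45.9 FPKM with gLmna-2, against 36.1 and 19.6 FPKM with gMock, a change of 0.95 (SE 0.11, limma adjusted p = 0.022). The adhesion protein Mcam was at 7.51 and 13.6 FPKM with gLmna-2, against 2.13 and 6.52 FPKM with gMock, a change of 1.20 (SE 0.17, limma adjusted p = 0.032). The membrane protein Tmem119 rose by 0.88, the sphingosine phosphate receptor S1pr3 by 1.04, the adrenergic receptor Adra2a by 1.07 and the ATP-cleaving surface enzyme Entpd2 by 0.79, all 4 without overlap between the groups.

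Some of them are also expressed by endothelial cells, so the markers of that cell type are given beside them. Of 10 endothelial markers, 1 (Egfl7, change −0.012) passed the filter on low values. The defining marker Pecam1 was at 0.118 and 0.362 FPKM with gLmna-2, against 0.131 and 0.175 FPKM with gMock, and Tie1 and Cldn5 were listed at 0 in both gMock libraries and in the gLmna-2 library of mouse 2. Of the 10 markers, 5 (Cdh5, Esam, Emcn, Tek and Vwf) were higher with gLmna-2 in both mice at low levels. The cadherin gene Cdh5 was at 0.682 and 1.33 FPKM with gLmna-2, against 0.230 and 0.780 FPKM with gMock, and Esam at 0.618 and 1.10 FPKM with gLmna-2, against 0.190 and 0.470 FPKM with gMock. The 10 markers summed to 4.96 and 6.68 FPKM with gLmna-2, against 4.53 and 4.07 FPKM with gMock, and their part in the values of the surface proteins was not tested. In RNA from bulk cultures, fewer cells of a type and less RNA per cell cannot be told apart.

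Matrix genes changed in few members. Adam33, a membrane-bound metalloprotease, was at 8.13 and 3.40 FPKM with gLmna-2, against 3.24 and 1.11 FPKM with gMock. It had the smallest adjusted p of all genes, a change of 1.08 (SE 0.084, limma adjusted p = 0.0044) that was almost equal in the mice at 1.11 and 1.06. It was the 1 of 36 tested matrix proteases and inhibitors that passed, against 0.349% higher of all genes. Of 60 tested extracellular matrix genes 2 rose past the test, against 0.349% of all genes. Both had overlapping groups, and the median change of the list was −0.034. Mfap5, a protein of microfibrils, was at 169 and 96.4 FPKM with gLmna-2, against 119 and 44.3 FPKM with gMock, a change of 0.81 (SE 0.13, limma adjusted p = 0.038). The fibril-associated collagen gene Col14a1 was at 1.53 and 3.81 FPKM with gLmna-2, against 0.348 and 2.01 FPKM with gMock, a change of 0.79 (SE 0.12, limma adjusted p = 0.036).

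The next smallest p among lower genes after Sfrp2 was that of Col11a1, a collagen gene of cartilage. It was at 18.2 and 17.3 FPKM with gLmna-2, against 45.6 and 29.9 FPKM with gMock, a change of −1.02 (SE 0.17) that missed the threshold (limma adjusted p = 0.053). Col2a1, the main collagen gene of cartilage, was at 10.2 and 208 FPKM with gLmna-2, against 92.9 and 391 FPKM with gMock, a change of −1.99 (limma adjusted p = 0.20). It was lower with gLmna-2 in each mouse, and the mice differed more than the guides did. Of 8 tested cartilage and bone markers 7 had negative changes, against 44.7% of all genes tested. None of the 8 passed, and their median was −0.41. Penk, the precursor of enkephalin peptides, was at 79.3 and 145 FPKM with gLmna-2, against 123 and 249 FPKM with gMock (change −0.70, limma adjusted p = 0.060). The phosphatase Phpt1 (−0.55) and the growth factor receptor Fgfr2 (−0.54) completed the 5 lower genes with the smallest p and did not pass.

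Of the genes that passed, Gldn and Lgi4 are known from peripheral nerve and were gathered after the test. Gldn encodes gliomedin, which Schwann cells use to form nodes of Ranvier. It was at 5.21 and 10.7 FPKM with gLmna-2, against 0.789 and 3.93 FPKM with gMock, a change of 1.52 (SE 0.19, limma adjusted p = 0.022). Lgi4, which Schwann cells secrete and need for myelination, was at 1.35 and 2.80 FPKM with gLmna-2, against 0.171 and 1.13 FPKM with gMock, a change of 0.92 (SE 0.14, limma adjusted p = 0.038). Neither showed overlap between the groups.

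Markers of pigment and Schwann cells moved with these genes. All 9 tested of 14 listed were positive in both mice, against 4559 of all 12599 genes, with a median change of 0.69. By limma 0 of the 9 passed the test, and 7 were higher at an unadjusted p under 0.05, against 8.45% of all genes tested. Their summed level was 33.9 and 89.8 FPKM with gLmna-2, against 11.9 and 59.4 FPKM with gMock. Ngfr, the low-affinity neurotrophin receptor, was at 12.1 and 40.2 FPKM with gLmna-2, against 1.87 and 23.5 FPKM with gMock (change 1.47, limma adjusted p = 0.10). Sox10, the transcription factor of neural crest and Schwann cells, had a change of 1.03 (limma adjusted p = 0.0998) and the neuregulin receptor Erbb3 one of 0.69 (limma adjusted p = 0.0988). The pigment gene Tyr was listed at 0 in 3 of the 4 libraries. The tested pigment genes Mitf and Pmel were higher with gLmna-2 in both mice. Mitf was at 4.99 and 6.29 FPKM with gLmna-2, against 3.19 and 5.33 FPKM with gMock. Pmel was at 1.22 and 0.831 FPKM with gLmna-2, against 1.05 and 0.557 FPKM with gMock. The part of these markers in the values of Gldn and Lgi4 was not tested.

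Further genes with changes above 1 belonged to none of these groups. Tns4, a tensin that links integrins to the cytoskeleton, was at 2.21 and 4.24 FPKM with gLmna-2, against 0.812 and 0.802 FPKM with gMock, a change of 1.18 (SE 0.17, limma adjusted p = 0.036). Fam78b was at 4.47 and 7.23 FPKM with gLmna-2, against 1.18 and 3.30 FPKM with gMock, a change of 1.13 without overlap. Lrrc27, a protein with leucine-rich repeats, was at 18.5 and 23.2 FPKM with gLmna-2, against 8.37 and 9.66 FPKM with gMock. The mice lay close together in each group, and the change was 1.12 (SE 0.13, limma adjusted p = 0.016). Mgll, the lipase that breaks down monoacylglycerols, was at 18.3 and 9.39 FPKM with gLmna-2, against 8.18 and 4.17 FPKM with gMock, a change of 1.04.

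Further higher genes are best known from neurons: the G protein subunit Gnao1 (0.78), the G protein regulator Rgs8 (1.06), the phosphodiesterase Pde1b (0.84), the semaphorin Sema4f (0.76) and the axon guidance protein Slit3 (0.64). Of these, Rgs8 and Slit3 had overlapping groups. Slit3 was the most abundant, at 34.7 and 18.4 FPKM with gLmna-2, against 22.04 and 11.3 FPKM with gMock. Gnao1 reached 2.68 FPKM and Sema4f 3.20 FPKM at most in the 4 libraries.

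Of the genes that passed, 5 further ones are known from immune cells. They were gathered after the test, while 0 genes passed by limma in the lists of interferon-stimulated, class I, NF-kB, complement and macrophage genes. H2-DMa, a chaperone that loads peptides on class II molecules, was at 9.57 and 9.88 FPKM with gLmna-2, against 5.06 and 5.77 FPKM with gMock (change 0.74, SE 0.12, limma adjusted p = 0.038). The tyrosine kinase Syk was at 5.23 and 10.1 FPKM with gLmna-2, against 2.81 and 5.70 FPKM with gMock (change 0.72, SE 0.11, limma adjusted p = 0.038), with overlap. Apbb1ip, an adaptor for integrin activation, was at 25.1 and 30.1 FPKM with gLmna-2, against 16.4 and 18.4 FPKM with gMock (change 0.63, SE 0.10, limma adjusted p = 0.038). The pore-forming protein gene Gsdmd rose by 0.85 and the protease inhibitor gene Ctla2a by 1.20.

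The change of macrophage markers differed between the mice of homozygous Cas9 cells. All 22 tested of 25 listed had positive changes in the fit over both mice, against 55.3% of all genes, with a median of 0.57. By limma 0 of them passed the test, and 2 were higher at an unadjusted p under 0.05, a share of the list near the 8.45% of all genes. The medians were 1.10 in mouse 1 and 0.085 in mouse 2. Of the 22 markers 14 were positive in both, against 4559 of all 12599 genes. Their summed level was 1966 and 1016 FPKM with gLmna-2, against 771 and 945 FPKM with gMock. Most of each sum was the lysozyme gene Lyz2, at 1224 and 620 FPKM with gLmna-2, against 452 and 565 FPKM with gMock. The receptor gene Csf1r was at 20.7 and 13.8 FPKM with gLmna-2, against 9.46 and 11.9 FPKM with gMock, and Cd163 was under 0.073 FPKM throughout. The median change of the same list was 0.77 in wild-type Cas9 cells, with 0.42 in mouse 1 and 1.14 in mouse 2. In heterozygous cells without Cas9 it was 0.61, with 0.55 and 0.71, so the markers were higher with gLmna-2 there too. In homozygous Cas9 cells the changes of Ccl8, H2-DMa, Syk and Apbb1ip were 2.55, 0.80, 0.71 and 0.59 in mouse 1. In mouse 2 they were 1.43, 0.68, 0.73 and 0.68. The part of macrophage RNA in these values was not tested in either mouse.

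Genes of senescence and growth arrest were examined because early senescence is known in progeria. Cdkn2a, which encodes a pair of inhibitors of cell proliferation from overlapping reading frames, was at 150 and 110.3 FPKM with gLmna-2, against 112 and 69.1 FPKM with gMock. It rose by 0.54 (SE 0.084, limma adjusted p = 0.038), in both mice and with overlapping groups. Of 33 tested genes in a list of senescence and secretory factors 2 passed, Ccl8 and Cdkn2a, against 0.349% higher of all genes. The median change of the list was 0.18. The matrix proteases Mmp12 (1.21) and Mmp10 (1.19) and the inhibitor Timp1 (0.46) were positive in both mice and did not pass (limma adjusted p = 0.23, 0.32 and 0.34).

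By limma 0 of 40 tested p53 targets passed, with 4 higher and 1 lower at an unadjusted p under 0.05, shares near the 8.45% and 1.65% of all genes, and their median change was 0.069. Those with the smallest p were Pmaip1, a BH3-only inducer of apoptosis (0.88, limma adjusted p = 0.16), the desmosomal gene Perp (1.00, limma adjusted p = 0.30) and Mdm2, the ligase that degrades p53 (0.26, limma adjusted p = 0.35). Pmaip1 was at 32.9 and 24.3 FPKM with gLmna-2, against 14.9 and 14.9 FPKM with gMock, so its groups did not overlap. The 24 tested genes of DNA double-strand break repair had a median of −0.12. Of them 17 were negative in both mice, against 3413 of all 12599 genes tested. By limma 0 of the 24 passed at either an adjusted p or an unadjusted p of 0.05.

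Mitosis genes had negative changes without exception, and by limma 0 of them passed at either an adjusted p or an unadjusted p of 0.05. All 30 were below 0 in both mice, against 3413 of all 12599 genes tested, and the median was −0.56. Of the 30, 12 were lower by at least 0.5 in both mice, against 0.484% of all genes. Cenpa, the centromeric histone, was at 4.28 and 2.90 FPKM with gLmna-2, against 8.49 and 6.11 FPKM with gMock (change −0.86, SE 0.44, limma adjusted p = 0.59). The kinase Ttk (−0.64) and the kinesin Cenpe (−0.68) were lower in both mice too. For 33 DNA replication genes the median was −0.29, with 30 negative in both mice, against 3413 of all 12599 genes. None of the 33 passed the test. The median change of the mitosis genes was −0.92 in wild-type Cas9 cells and −0.18 in heterozygous cells without Cas9. The wild-type value came mostly from 1 mouse, with medians of −0.24 in mouse 1 and −1.68 in mouse 2. Their summed level there was 57.5 and 86.6 FPKM with gLmna-2, against 75.2 and 348 FPKM with gMock, so that the gMock library of mouse 2 stood apart.

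**Figure D3:**
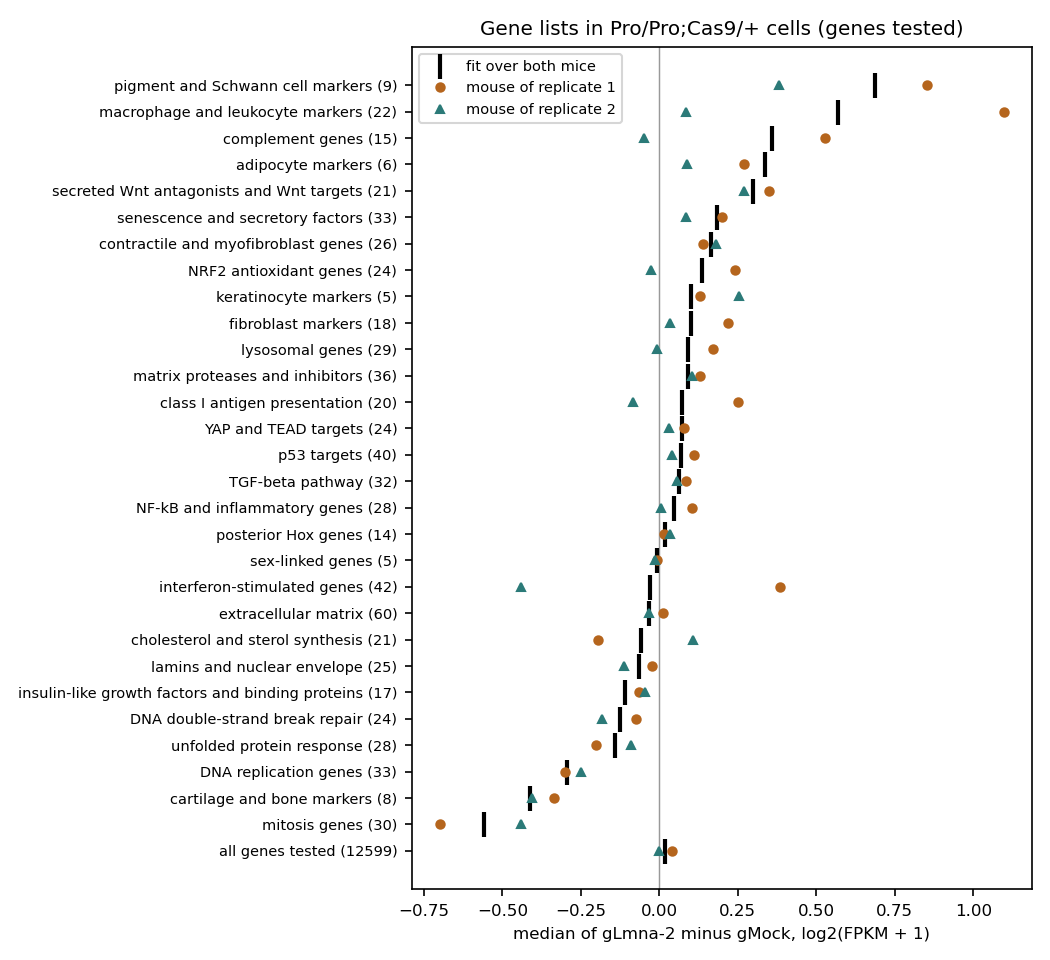
Median change in log2(FPKM + 1), gLmna-2 minus gMock, of each gene list with at least 5 tested members in homozygous Cas9 cells, with the number tested in parentheses. Black bars are the fit over both mice, circles mouse 1 and triangles mouse 2. Pigment and Schwann cell markers are highest at 0.69, mitosis genes lowest at −0.56, and for macrophage markers and interferon-stimulated genes the mice lie far apart.

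Interferon-stimulated genes differed in direction between the mice. The median of 42 tested genes was 0.39 in mouse 1 and −0.44 in mouse 2, and −0.030 in the fit, with none past the test. The median of the same list was −1.47 in wild-type Cas9 cells and 0.14 in heterozygous cells without Cas9.

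Among contractile, chaperone and nuclear envelope genes 0 passed the test by limma. Of 26 contractile and myofibroblast genes 21 had positive changes (median 0.16), against 55.3% of all genes, and 5 were higher at an unadjusted p under 0.05, against 8.45%. Tagln, an actin-binding protein of smooth muscle, was at 938 and 663 FPKM with gLmna-2, against 613 and 395 FPKM with gMock (change 0.68, limma adjusted p = 0.20). The light chain Myl9 (0.73) and tropomyosin Tpm2 (0.53) did not pass. Of 28 genes of the unfolded protein response 22 had negative changes (median −0.14), against 44.7% of all genes, and 7 were lower at an unadjusted p under 0.05, against 1.65%, led by the disulfide isomerase Pdia4 (−0.38, limma adjusted p = 0.20) and the chaperone Hsp90b1 (−0.34, limma adjusted p = 0.30). For the nuclear lamina and envelope, 25 genes were tested, with a median of −0.066 and 1 at an unadjusted p under 0.05. It was Syne3, a linker between nucleus and cytoskeleton (−0.27, limma adjusted p = 0.46). The median changes of YAP and TEAD targets (0.072), NF-kB and inflammatory genes (0.046), lysosomal genes (0.092) and NRF2 antioxidant genes (0.14) can be read against the 0.019 of all genes.

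The 44 higher genes were then followed in the other genotypes, which share no library with the homozygous Cas9 cells. In wild-type Cas9 cells gLmna-2 against gMock gave positive changes for 40 of the 44 (90.9%, against 47.7% of all genes tested), with a median of 0.34. Among them 2 also rose past the test there, Lrrc27 (0.83) and Ctla2a (1.09), where 71 genes (0.564%) passed, 3 of them higher and 68 lower. In heterozygous cells without Cas9, 29 of the 44 were positive (65.9%, against 35.4%), with a median of 0.14. At an unadjusted limma p under 0.05, 10 of the 44 were higher there and 1, Lrrc27 (−0.36), was lower. Crabp1 was among the 10, at 28.7 and 90.1 FPKM with gLmna-2, against 14.5 and 49.3 FPKM with gMock (change 0.90). Tmem119 (0.57) and Adam33 (0.46) were among them too. By limma 0 genes passed the adjusted p in those cells (0%), with 566 at an unadjusted p under 0.05. By voom 0 passed the adjusted p too, with 702 at an unadjusted p under 0.05.

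The difference between genotypes was tested in the same model. The change with gLmna-2 was larger in homozygous Cas9 cells than in wild-type Cas9 cells for each of the 44, by a median of 0.55. That direction follows in part from choosing the genes in the homozygous cells. By limma 0 of 12599 differences passed the adjusted p, with 442 at an unadjusted p under 0.05. By voom 0 passed the adjusted p too, with 475 at an unadjusted p under 0.05. Against heterozygous cells without Cas9 the median difference was 0.77. By limma 0 differences passed the adjusted p, with 975 at an unadjusted p under 0.05. The voom counts were 0 and 1047. The largest single differences from wild-type Cas9 cells were those of Cck (2.11, SE 0.56, limma adjusted p = 0.48) and Crabp1 (2.06, SE 0.30, limma adjusted p = 0.12). For none of the 45 genes was the change thus shown to differ between the genotypes.

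**Figure D4:**
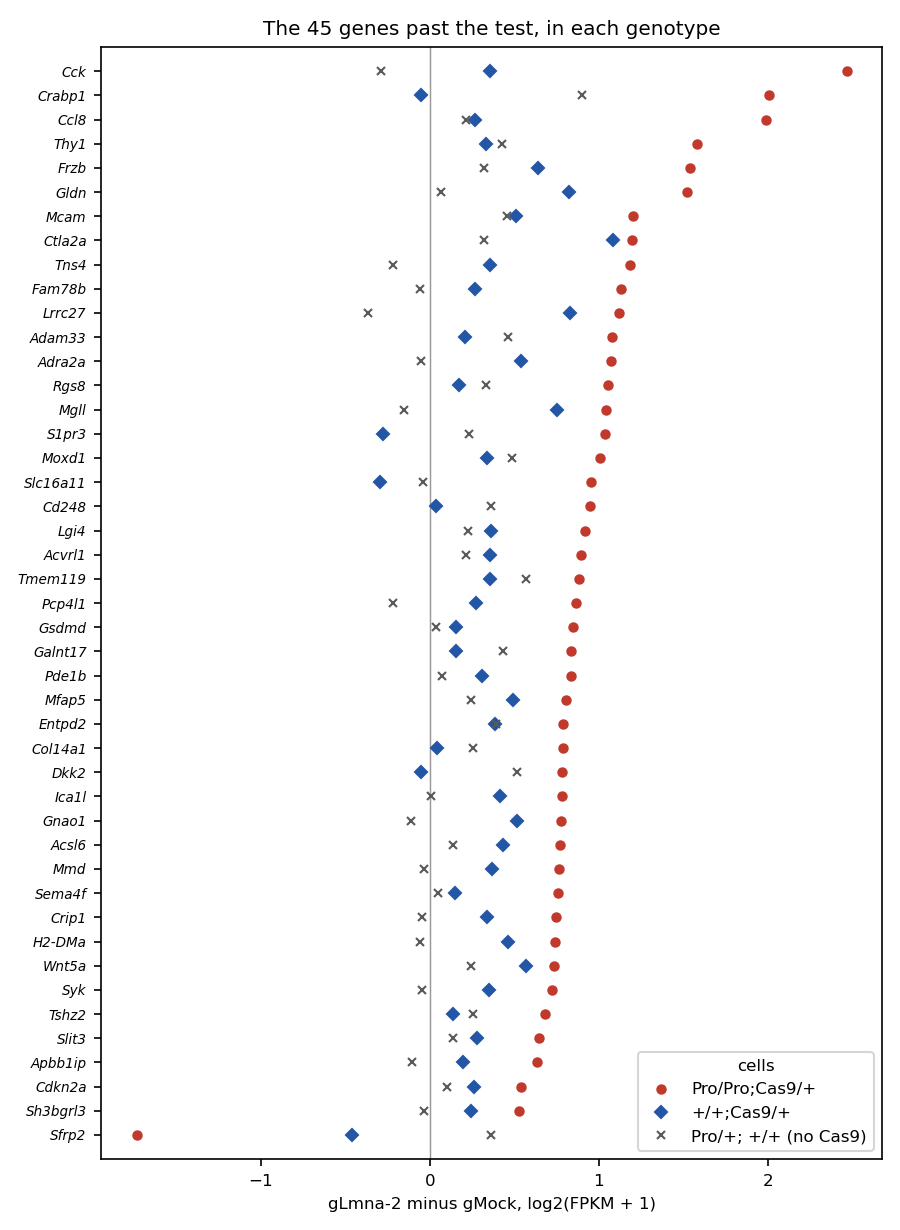
Change in log2(FPKM + 1), gLmna-2 minus gMock, of the 45 genes past the test, sorted from the largest at the top. Red circles are homozygous Cas9 cells, in which the genes were chosen, blue diamonds wild-type Cas9 cells and crosses heterozygous cells without Cas9. Most diamonds lie right of 0 and left of the circles, and only Ctla2a has a diamond above 1.

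Levels in the other genotypes are given beside these changes. In wild-type Cas9 cells Cck was at 836 and 695 FPKM with gLmna-2, against 719.7 and 489.8 FPKM with gMock. These values were far above any of the 4 homozygous libraries. Crabp1 was at 308 and 185 FPKM with gLmna-2, against 278 and 219.5 FPKM with gMock. For Thy1 the values were 547 and 404 FPKM with gLmna-2, against 461 and 301 FPKM with gMock, and for Ccl8 668 and 388 FPKM with gLmna-2, against 656 and 271 FPKM with gMock. For Sfrp2, the lower gene, they were 4.02 and 11.5 FPKM with gLmna-2, against 7.04 and 13.9 FPKM with gMock. For Frzb they were 6.29 and 10.2 FPKM with gLmna-2, against 4.46 and 5.17 FPKM with gMock. In heterozygous cells without Cas9, with gMock, Cck was at 40.8 and 36.1 FPKM and Crabp1 at 14.5 and 49.3 FPKM. In the same libraries Thy1 was at 57.3 and 116 FPKM and Ccl8 at 43.97 and 35.7 FPKM. Sfrp2 was there at 52.04 and 34.7 FPKM and Frzb at 2.48 and 3.47 FPKM. These genes were picked after their values were seen, so the levels are given as a description.

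The other guide against Lmna, gLmna-1, was compared with the same gMock libraries, so its values are set beside those of gLmna-2 without a measure of likeness. Adam33 had a change of 1.12 with gLmna-1 and 1.08 with gLmna-2. For Mfap5 they were 0.96 and 0.81, for Frzb 0.76 and 1.54, and for Ccl8 0.56 and 1.99. Cck had −0.23 with gLmna-1 and 2.47 with gLmna-2, Crabp1 0.26 and 2.01, and Acvrl1 0.00 and 0.89. Sfrp2 had 0.34 with gLmna-1 and −1.73 with gLmna-2.

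Promoters of 4 of these genes are shown as the sequence from which their RNA starts: the 3 higher genes that held a searched motif and had some of the largest changes, and Sfrp2 as the 1 lower gene. Each run is the 250 bases before the start in RefSeq (GRCm38.p6), 5′ to 3′ on the strand of the gene, with motif matches in capitals. The motifs were TATAAA of the TATA box, TGANTCA of AP-1 and GGAATG of TEAD factors, searched on both strands. The windows are chr9:54764498-54764747 (plus strand) for Crabp1, chr11:82114935-82115184 (plus strand) for Ccl8, chr9:54286236-54286485 (plus strand) for Gldn and chr3:83766071-83766320 (plus strand) for Sfrp2.
Crabp1: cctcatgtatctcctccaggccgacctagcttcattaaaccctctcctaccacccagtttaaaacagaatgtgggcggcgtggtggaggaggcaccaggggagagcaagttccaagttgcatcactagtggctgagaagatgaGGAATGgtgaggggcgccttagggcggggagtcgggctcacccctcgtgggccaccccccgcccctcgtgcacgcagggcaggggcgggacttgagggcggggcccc
Ccl8: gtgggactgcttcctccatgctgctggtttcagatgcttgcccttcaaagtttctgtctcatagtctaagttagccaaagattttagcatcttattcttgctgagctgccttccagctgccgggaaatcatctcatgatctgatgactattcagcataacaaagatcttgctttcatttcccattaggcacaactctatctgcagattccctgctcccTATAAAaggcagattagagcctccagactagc
Gldn: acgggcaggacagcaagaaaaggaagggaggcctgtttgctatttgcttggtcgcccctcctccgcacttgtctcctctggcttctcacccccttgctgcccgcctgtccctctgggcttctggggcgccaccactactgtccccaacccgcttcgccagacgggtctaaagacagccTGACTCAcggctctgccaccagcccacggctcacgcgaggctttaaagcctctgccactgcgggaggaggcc
Sfrp2: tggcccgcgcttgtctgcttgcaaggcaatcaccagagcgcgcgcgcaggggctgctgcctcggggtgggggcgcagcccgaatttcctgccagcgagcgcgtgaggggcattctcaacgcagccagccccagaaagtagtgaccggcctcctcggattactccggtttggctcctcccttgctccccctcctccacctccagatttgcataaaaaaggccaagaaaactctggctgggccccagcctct

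Of the 44 higher genes 32 had a promoter in the RefSeq table. TATAAA was found in 4 of them (12.5%, against 6.62% of 9826 promoters of tested genes), namely Adra2a, Ccl8, Ctla2a and Dkk2. TGANTCA was found in 4 (12.5%, against 4.58%), namely Acsl6, Ctla2a, Entpd2 and Gldn, and GGAATG in 3 (9.38%, against 10.6%), namely Crabp1, Entpd2 and Galnt17. The Sfrp2 window held none of these letters. Matches of this length describe the windows and show neither binding nor a cause.

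Genes near Lmna were described because a cut chromosome can lose or rearrange neighbouring sequence. The window of 5 Mb on each side was chosen after the values had been seen. Of 125 genes tested there, 1 passed the test, Sfrp2 at 4.73 Mb, and 7 were higher by at least 0.5 in both mice (5.6%, against 1.79% of all genes). Of those 7, 4 encode proteins of the outer epidermis and lie together 4.08 to 4.52 Mb from Lmna: Ivl, Lce1g, Lce1l and Crct1. Ivl (involucrin) was at 3.16 and 13.3 FPKM with gLmna-2, against 0.403 and 1.73 FPKM with gMock, a change of 1.98 (SE 0.34) that missed the threshold (limma adjusted p = 0.053). Crct1 was at 19.1 and 81.8 FPKM with gLmna-2, against 6.12 and 35.4 FPKM with gMock (change 1.34, limma adjusted p = 0.34). The keratinocyte markers Krt14 and Krt1 were listed at 0 in all 4 libraries. The 5 of 14 keratinocyte markers that were tested summed to 20.6 and 26.8 FPKM with gLmna-2, against 9.69 and 19.1 FPKM with gMock. Most of each sum was Perp and Dsp. Trp63, also among the tested markers, was lower in both mice, at 0.320 and 0.305 FPKM with gLmna-2, against 0.888 and 0.616 FPKM with gMock. The part of keratinocyte markers in the values of the epidermal genes was not tested. The other 3 of the 7 genes higher near Lmna were Nes (0.88) and the calcium-binding protein genes S100a2 (0.76) and S100a3 (0.92), none of which passed. The median change of the 125 genes was 0.056.

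**Figure D5:**
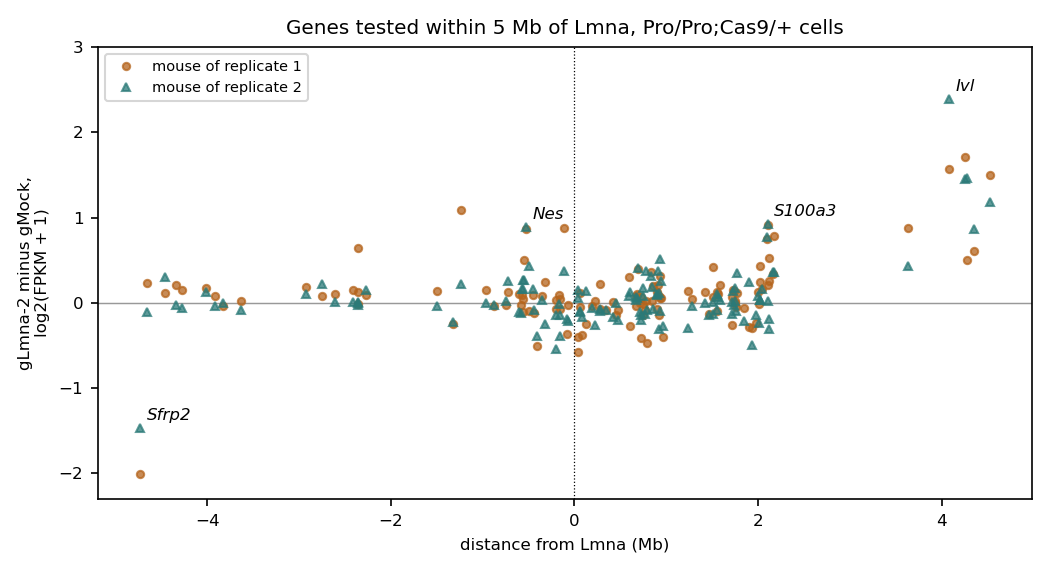
Change in log2(FPKM + 1), gLmna-2 minus gMock, of the 125 genes tested within 5 Mb of Lmna, by their distance in Mb from Lmna (dotted line) in homozygous Cas9 cells. Circles are mouse 1 and triangles mouse 2. Points scatter about 0 near Lmna, Sfrp2 lies lowest at the left edge, and the epidermal genes with Ivl highest lie at the right.

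These calls rest on 2 mice and on the fit that pairs libraries by mouse. Without the block for the mouse, or with homozygous libraries alone, 0 genes passed by limma (556 and 669 at an unadjusted p under 0.05), and 0 passed when either gLmna-2 library or the gMock library of mouse 1 was left out.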

How the data were processed

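RNA of 18 fibroblast libraries was sequenced (3 genotypes, 3 guides, 2 mice per genotype as the titles name them, of which 1 heterozygous name joins 2 numbers and may stand for a pool), and the 4 libraries of gLmna-2 and gMock in homozygous Cas9 cells are the subject. Per the submitters' processing notes, FastQC 0.11.2, STAR 2.4.0k and HOMER were used with mm10. The deposited values are FPKM, which the authors' HOMER run counted over exons and wrote for each transcript part, per the file headers (404759 parts of 36795 transcripts). Strand use is not given in the sources used here, so overlapping antisense genes cannot be separated, and reads of near-identical copies may be shared. The table has 24 library columns, and 6 of these, whose names fit none of the labelled samples, were left aside.

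Parts were combined per transcript by length, transcripts were named from RefSeq (36469) and GENCODE (199), 127 stayed unnamed, and 1 transcript, that of the highest mean FPKM, stood for each of 24445 symbols. Depth came from the steps of the values: 100% of low values were whole multiples of 1 read within 0.05. The test ran on log2(FPKM + 1) of genes that reached 1 FPKM in 2 or more libraries, with lmFit and trended eBayes of limma 3.58.1 (R 4.3.3). All 18 libraries entered it, mice were fixed blocks, each genotype had its own guide effects, and 6 residual degrees of freedom remained. Adjusted p-values are Benjamini-Hochberg values over 12599 genes. The titles name the mouse, so same-mouse libraries were treated as pairs. After removal of group means, gLmna-2 and gMock libraries of a mouse correlated at 0.78 in homozygous, 0.59 in wild-type and 0.73 in heterozygous cells. For gLmna-1 with gMock the values were 0.128, 0.176 and 0.567 in that order. For gLmna-2 with gLmna-1 they were −0.0193, 0.365 and 0.472. The block also covered the gLmna-1 libraries, which in homozygous cells thus showed little likeness by mouse.

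The libraries compared and the 31 gene lists were chosen with earlier results of these data known. Besides Lmna, the text names by rule the largest changes that passed, at most 10 in each direction (mean at least 2 FPKM, same direction in both mice, no sex-linked genes or gene models), the 5 with the smallest p where fewer than 5 passed, and up to 4 members of each list. Other genes that passed, neighbours of Lmna and further single genes are named outside this rule, after their values were seen. Among the single genes are Col1a1, Sfrp1, Nkd2, Timp1, Lyz2, Csf1r, Cd163, Krt1, Krt14, Myod1 and Adipoq. The endothelial markers Pecam1, Tie1, Cldn5, Cdh5, Esam, Emcn, Tek and Vwf and the pigment genes Tyr, Mitf and Pmel are others. Alternatives were another pseudocount and filters, no block, fewer libraries, voom on recovered reads, centred libraries, the longest transcript and leaving out each library. The model was tested on simulated data. A few genes and sequences are not reported here. Sequences are from GENCODE (release M21) and RefSeq. Python 3.11.15 (pandas 2.3.3, numpy 2.4.6) joined the tables, and matplotlib 3.10.9 drew the figures.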

Additional observations from a re-analysis of the deposited data

How the results depend on the processing

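The count of 45 genes lay between 30 and 54 with a pseudocount of 0.1 (39), a filter of 5 FPKM (33), voom on recovered reads (54), centred libraries (30), the longest transcript (44) and, an alternative chosen after seeing the data, only the gLmna-2 and gMock libraries (36). It was 19 without a filter on low values. It was 0 without the replicate block of mouse and 0 with only the libraries of the genotype compared, a fit with fewer samples. Leaving out each library gave 0 to 181. The 181 came without either gLmna-1 library of homozygous cells, 0 without either gLmna-2 library or the gMock library of mouse 1, 11 without the gMock library of mouse 2, and 7 to 21 without a library of another genotype. Acvrl1, Adam33, Cd248, Crabp1, Frzb, Lrrc27, Mmd and Tmem119 passed in 7 of these 9 settings other than leaving out a library, and 0 of the 45 genes changed sign in any. In wild-type Cas9 cells the count of 71 became 33 with a pseudocount of 0.1, 27 without a filter, 43 without the replicate block, 0 with their own libraries only, and 0 to 131 when a library was left out. Differences from wild-type Cas9 cells, 0 by limma, became 1 without a filter and 0 to 13 when a library was left out. Differences from heterozygous cells stayed at 0 in all settings, and the change in heterozygous cells was 0 except for 1 gene without a filter. Of 162 genes followed, 7 changed sign when a library was left out, and none of them passed: Lmna (−0.38 to 0.14), Psmb8 (−0.037 to 0.80), Ptges (−0.00014 to 0.62), Igfbp6 (−0.11 to 1.05), Cd68 (−0.0050 to 1.30), Egfl7 (−0.22 to 0.19) and Krt10 (−0.00059 to 0.20). Of 31 list medians 1 changed sign with centred libraries, that of posterior Hox genes (0.019 and −0.011). Apart from the stated constructions, the cause was not tested.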

Other observations

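Skeletal muscle actin Acta1 was at 33.6 and 40.3 FPKM with gLmna-2, against 16.6 and 17.6 FPKM with gMock in homozygous Cas9 cells, a change of 1.06 (SE 0.27, limma adjusted p = 0.18), and the muscle regulator Myod1 was listed at 0 in all 4 libraries. The other tested muscle markers were positive in both mice too. Des was at 1.00 and 1.58 FPKM with gLmna-2, against 0.499 and 1.03 FPKM with gMock (change 0.38), and Mylpf at 0.595 and 1.30 FPKM with gLmna-2, against 0.474 and 0.475 FPKM with gMock (change 0.38). The fatty acid carrier Fabp4 was at 33.9 and 32.4 FPKM with gLmna-2, against 51.1 and 45.3 FPKM with gMock (change −0.53, limma adjusted p = 0.20), and the adipocyte hormone gene Adipoq was listed at 0 in all 4. Of 6 tested adipocyte markers, Fabp4 and 1 other had negative changes and 4 positive ones (against 55.3% of all genes), with a median of 0.34. Among the positive ones Cebpa, a transcription factor of adipocytes, was at 3.15 and 4.12 FPKM with gLmna-2, against 1.96 and 2.74 FPKM with gMock (change 0.47). The complement inhibitor Serping1 was at 24.6 and 17.4 FPKM with gLmna-2, against 16.3 and 12.5 FPKM with gMock (change 0.51, limma adjusted p = 0.13), and C2 had a change of 0.56 (limma adjusted p = 0.32). Of 15 tested complement genes 10 were positive, against 55.3% of all genes tested. Their median was 0.36 in the fit, 0.53 in mouse 1 and −0.050 in mouse 2.

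The nestin gene Nes, 0.522 Mb from Lmna, was at 6.41 and 19.96 FPKM with gLmna-2, against 3.07 and 10.3 FPKM with gMock, a change of 0.88 (SE 0.22, limma adjusted p = 0.17) that was nearly equal in the mice at 0.86 and 0.89. It was chosen after its values were seen. In wild-type Cas9 cells its change was −0.17 and in heterozygous cells without Cas9 0.20.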
